A study of Mus musculus with 2 samples.

Results

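The genes described here are the 6 members of the platelet-derived growth factor (PDGF) system that the mouse genome encodes as classical ligands and receptors. They are the 4 ligand genes Pdgfa, Pdgfb, Pdgfc and Pdgfd and the 2 receptor genes Pdgfra and Pdgfrb, selected by symbol, and all 6 were found among 43346 gene rows. The tissue was the whole heart of B6NCrl mouse embryos, a C57BL/6 substrain, at embryonic day 14.5, with no treatment and no engineered allele named in the labels. Total RNA above 200 nt was sequenced, 10 ng per library, as 2 libraries of 1 group, each from a single heart. Replicate 1 was collected on day 15 and replicate 2 on day 17 of July. Sex-linked genes, given below, also differed, so that heart, collection day and sex cannot be told apart. Each heart is 1 library, so no p-value between the hearts is given, and every spread below is that of these 2 libraries.

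PDGFs are dimers of disulfide-linked chains that bring together 2 receptor chains, each with an extracellular immunoglobulin-like part and an intracellular tyrosine kinase. PDGF-A and PDGF-C act mainly through the alpha receptor, PDGF-B through the alpha and the beta receptor, and PDGF-D mainly through the beta receptor. In the developing heart the alpha receptor is known from the epicardium, the mesenchyme that gives fibroblasts and the valve cushions, and the beta receptor from the smooth muscle cells and pericytes of the coronary vessels, which respond to PDGF-B from endothelium.

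The libraries held 2.85e+07 and 2.90e+07 estimated reads, and 2.75e+07 and 2.79e+07 of them lay on genes. All 8 cardiomyocyte markers examined were abundant, among them cardiac actin Actc1 and cardiac troponin T (Tnnt2), with a summed level of 40306 TPM (a share of all transcripts in a library, so a level per transcript length) in replicate 1 and 40597 TPM in replicate 2. All 8 markers of endothelium, all 7 of epicardium and all 8 of mesenchyme and fibroblasts were at 1 TPM or more in both libraries. None of the 4 lung epithelium markers was, and the surfactant gene Sftpc was listed at 0 in both. Of 4 skeletal muscle markers 2 were, Ckm, the muscle creatine kinase that heart muscle also makes, at 646 and 547 TPM and Tnni2 at 18.6 and 23.9 TPM, while the regulator Myog was at 0.48 and 0.54 TPM and Myod1 was listed at 0 in both. The labels give the sex as a pool, but genes of the Y chromosome summed to 118 TPM (replicate 1) and 0.05 TPM (replicate 2), and Xist was at 0.04 and 37.7 TPM. Replicate 1 thus had the pattern of a male heart and replicate 2 that of a female heart. Erythroid markers also stood apart, with all 5 at least 1.5-fold higher in replicate 1. Of the 11958 genes that averaged 100 or more reads, 0.61% were. In whole-organ RNA, fewer cells of a type and less RNA per cell cannot be told apart.

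Pdgfa, which encodes the PDGF-A chain, was by far the most abundant of the 6 genes. Replicate 1 gave 39.5 TPM and replicate 2 gave 40.7 TPM (40.1 ± 0.863, SD, n = 2), from 1330 and 1375 estimated reads. Both hearts were alike in this, and the gene lay above 74.7% of the 12202 protein-coding genes that reached 1 TPM in both libraries. The gene lies on chromosome 5 from 138976014 to 138997370 on the minus strand (GRCm38, GENCODE M21, for this and the following positions). Pdgfa alone held 75.8% of the summed ligand TPM in replicate 1 and 74.0% in replicate 2.

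PDGF-A is known in a short and a long form, which differ at the end of the coding sequence. The long form carries a basic stretch that holds the protein at the cell surface and matrix. Of the 7 Pdgfa transcripts quantified, Pdgfa-201 is the long form of 211 codons, and Pdgfa-202, Pdgfa-203 and Pdgfa-204 share the short form of 196 codons. They part after the fifth coding exon. Pdgfa-201 includes exon 6, 69 nt long, at chr5:138978622-138978690, of which 53 bases are coding before the stop codon, while the short forms join directly to the last exon. The ends of both coding sequences are shown because the use of this exon decides which protein an mRNA encodes. Lower case marks the last 12 bases they share, and capitals mark the bases that differ, up to and including the stop codon:
Pdgfa-201: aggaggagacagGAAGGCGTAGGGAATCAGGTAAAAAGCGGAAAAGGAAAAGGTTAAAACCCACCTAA
Pdgfa-202: aggaggagacagATGTGAGGTGA

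Nearly all of the Pdgfa signal was assigned to the short form. The 3 short-form transcripts held 96.7% of the gene's TPM in replicate 1 and 93.7% in replicate 2. The long form held 1.09% and 1.03%. That is 12.9 and 12.6 estimated reads, with a posterior SD in the authors' deposited tables of 16.1 and 14.1 reads, so each estimate was smaller than its own posterior SD, and use of the long form was not detectable at this depth. The remaining 2.25% and 5.23% went to the 3 transcripts without an annotated coding sequence.

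The short-form transcripts differ in where they begin. Pdgfa-202 held 55.3% and 57.8% of the gene's TPM. Pdgfa-204, which starts 1050 nt upstream, held 36.3% and 29.4%, and Pdgfa-203, which starts 2333 nt upstream, held 5.06% and 6.53%. The order of the 3 transcripts was the same in both hearts. These models also differ in length, 2060 nt for Pdgfa-202, 1287 nt for Pdgfa-204 and 1363 nt for Pdgfa-203. Reads outside the first exons therefore weigh in this split, and the shares do not measure the use of the starts alone. The antisense gene 6330403L08Rik overlaps Pdgfa on the opposite strand and was at 1.24 and 1.47 TPM. The use of strand in counting is not given in the sources used here, so reads of the 2 genes may not have been separated where they overlap.

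Pdgfb, which encodes the PDGF-B chain known for recruiting pericytes to endothelium, was about an order of magnitude lower. The hearts gave 3.70 TPM (replicate 1) and 3.22 TPM (replicate 2) with a mean of 3.46 ± 0.339 (SD, n = 2), from 218 and 191 reads. Replicate 1 was the higher of the hearts. Pdgfa exceeded it 10.7-fold in replicate 1 and 12.6-fold in replicate 2. The gene lies on chromosome 15 from 79995874 to 80014977, on the minus strand, and a single transcript with 241 codons was quantified. Its first and its second coding exon have the same lengths as those of Pdgfa, 63 and 97 nt, and all 6 coding exons of Pdgfb differ in length from their Pdgfa-201 counterparts by 0 or by a multiple of 3.

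Pdgfc, which encodes PDGF-C, a ligand secreted in a latent form with an N-terminal CUB domain, had the lowest mean of the members. Replicate 1 held 2.30 TPM and replicate 2 held 3.20 TPM (2.75 ± 0.636, SD, n = 2), from 139 and 195 reads. It was lower in replicate 1, and only 9.69% of the detected protein-coding genes had a lower mean. The gene lies on chromosome 3 from 81036416 to 81214040 on the plus strand.

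Most of the Pdgfc signal was assigned to a transcript that is annotated as a target of nonsense-mediated decay, the pathway that degrades mRNAs with an early stop codon. This transcript, Pdgfc-202, held 75.7% of the gene's TPM in replicate 1 and 73.4% in replicate 2. The only protein-coding model, Pdgfc-201 with 345 codons, held 24.3% and 25.6%. In TPM, Pdgfc-201 was at 0.56 and 0.82, and Pdgfc-202 was at 1.74 and 2.35. The authors' deposited intervals of these estimates did not overlap within either library, at 0.247 to 0.973 against 1.11 to 2.18 TPM in replicate 1 and at 0.461 to 1.35 against 1.56 to 2.84 TPM in replicate 2. The level of these intervals is not given in the sources used here.

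The transcripts differ by a 59-nt exon at chr3:81131018-81131076, which lies between the first and the second exon of Pdgfc-201 and is included in Pdgfc-202. Its length is not a multiple of 3, and it holds an in-frame stop codon after 53 bases, with 5 exons still to follow. It is shown because it separates the mRNA that encodes the ligand from the one that does not. Lower case marks bases of shared exons, and capitals mark the additional exon up to its stop codon:
Pdgfc-202: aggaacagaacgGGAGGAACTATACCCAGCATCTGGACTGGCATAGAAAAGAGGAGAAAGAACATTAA
Pdgfc-201: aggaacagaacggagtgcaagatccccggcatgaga

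Pdgfc-201 also starts 756 nt upstream of Pdgfc-202, so the split between them rests on the first exon as well as on the 59-nt exon. The antisense gene Gm16000, which overlaps Pdgfc on the opposite strand, was listed at 0 in both libraries.

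Pdgfd, which encodes PDGF-D, the other CUB-domain ligand, came second among the ligands. Replicate 1 gave 6.60 TPM and replicate 2 gave 7.92 TPM (7.26 ± 0.933, SD, n = 2), from 366 and 466 reads. It was higher in replicate 2. Pdgfd exceeded Pdgfc 2.87-fold in replicate 1 and 2.48-fold in replicate 2, and it exceeded Pdgfb 1.78-fold and 2.46-fold. The gene lies on chromosome 9 from 6168584 to 6378850 on the plus strand.

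Both Pdgfd transcripts quantified encode the ligand, and they differ by 6 codons. In Pdgfd-202, of 370 codons, exon 2 begins 18 nt earlier than in Pdgfd-201, of 364 codons. These 18 bases, at chr9:6288472-6288489, are in capitals below, and the sequence of Pdgfd-201 at the same place is given for comparison:
Pdgfd-202: tcaggagagatgAGAGCAATCACCTCACAG
Pdgfd-201: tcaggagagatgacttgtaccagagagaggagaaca

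Pdgfd-201, the form without the 6 codons, led in both hearts with 75.9% of the TPM in replicate 1 and 87.7% in replicate 2. This was the widest spread of a leading share among the members, 8.36 percentage points (SD, n = 2). The deposited intervals of Pdgfd-202 overlapped between the libraries, at 0.919 to 2.42 and 0.414 to 1.74 TPM. Those of Pdgfd-201 did not, since the interval of 4.23 to 5.53 TPM in replicate 1 lay wholly below that of replicate 2, which reached 7.45 TPM. The models also differ in length, 3052 against 1795 nt, so reads from the longer 3′ end weigh in this split.

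**Figure D1:**
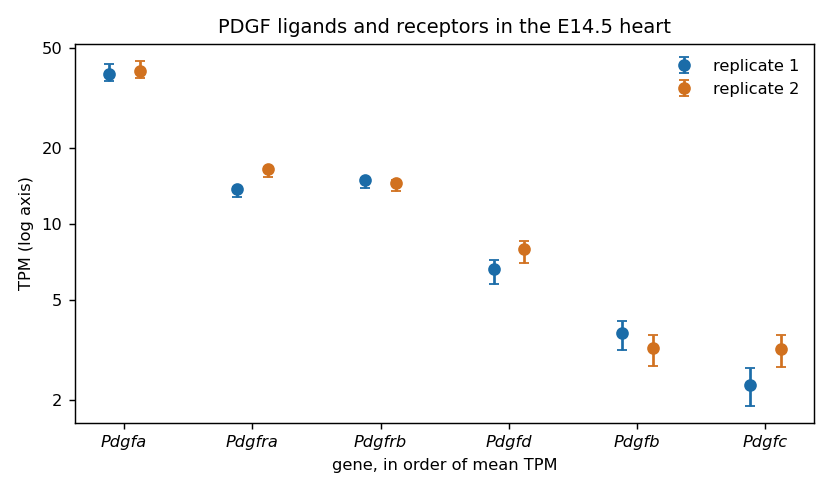
TPM (log axis) of the 6 genes in each library, with points for the 2 hearts and bars for the authors' deposited interval of each estimate. Pdgfa stands near 40 TPM, the receptors near 15 TPM and the other ligands between 2.30 and 7.92 TPM.

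The receptor genes were expressed at closely similar levels. Pdgfra, the alpha receptor, had 13.8 TPM (replicate 1) and 16.5 TPM (replicate 2) with a mean of 15.2 ± 1.95 (SD, n = 2), from 1860 and 2244 reads. Pdgfrb, the beta receptor, was at 15.0 and 14.6 TPM (14.8 ± 0.262, SD, n = 2), from 1662 and 1629 reads. Their ranges overlapped and their order changed, with Pdgfrb ahead in replicate 1 and Pdgfra ahead in replicate 2. The log2 ratio of Pdgfra to Pdgfrb was -0.12 and 0.18, so the receptors did not differ beyond the spread between the hearts. Both lay near the middle of the detected protein-coding genes, above 48.3% and 47.5% of them.

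Pdgfra lies on chromosome 5 from 75152292 to 75198215, on the plus strand. Its 2 transcripts quantified encode the same 1089 codons and differ in their first exon. Pdgfra-201 held 95.9% and 93.5% of the TPM. Pdgfra-202, which starts 3593 nt downstream, held the rest, with authors' deposited intervals of 0.0211 to 1.99 TPM in replicate 1 and 0.0572 to 2.74 TPM in replicate 2. Those intervals reach close to 0, so the use of the downstream start was poorly determined.

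The 250 bases before the RefSeq start of Pdgfra, chr5:75152001-75152250 on the plus strand of GRCm38.p6, are shown because nearly all of the Pdgfra signal was assigned to the start that lies 55 nt downstream of this RefSeq start:
Pdgfra promoter: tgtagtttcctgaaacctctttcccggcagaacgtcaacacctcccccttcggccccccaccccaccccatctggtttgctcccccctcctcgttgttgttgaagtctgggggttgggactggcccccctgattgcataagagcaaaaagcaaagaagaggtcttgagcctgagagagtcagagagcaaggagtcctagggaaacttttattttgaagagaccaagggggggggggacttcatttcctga

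Of 3 promoter motifs searched on both strands, none was found in this window. The TATA box letters TATAAA occur in 12.4% of 32851 RefSeq promoter windows of the same length. The CCAAT box occurs in 33.8% of them, and the GC box, searched as GGGCGG, in 32.7%. The Pdgfra window held 4 CpG dinucleotides, against a median of 6 over all windows. The 2 Pdgfa windows held 19 and 28 CpG dinucleotides and 1 and 2 matches to the GC box. They precede RefSeq starts that lie 756 and 93 nt downstream of the Pdgfa-202 start. The first window lies wholly downstream of that start, and neither covers the start of Pdgfa-204. The Pdgfc window held none of the 3 motifs, and the Pdgfd window held 1 match to the TATA box. RefSeq entries were matched for 4 of the 6 members.

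Pdgfrb lies at 61045150 to 61085061 of chromosome 18, also on the plus strand. All of its TPM was assigned to Pdgfrb-201, of 1099 codons, and none to Pdgfrb-202. The authors' deposited intervals of Pdgfrb-202 reached up to 0.746 TPM in replicate 1 and 0.853 TPM in replicate 2, so a low level is not excluded. The receptor genes share their coding exon structure. Each has 22 coding exons, and 9 of them have the same length at the same place in both genes. The other exons differ by a multiple of 3 in every case. Among the 9 are coding exons 10 to 13 and 17 to 20. Although the genes are related, no 25-base stretch of their transcripts was shared, and none was shared by any of the 15 pairs of members. The posterior SD of the gene counts was 0 reads for Pdgfb, Pdgfd, Pdgfra and Pdgfrb and at most 2.91 reads for Pdgfa and Pdgfc, so that dividing reads among genes added little or nothing to the error of the totals.

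**Figure D2:**
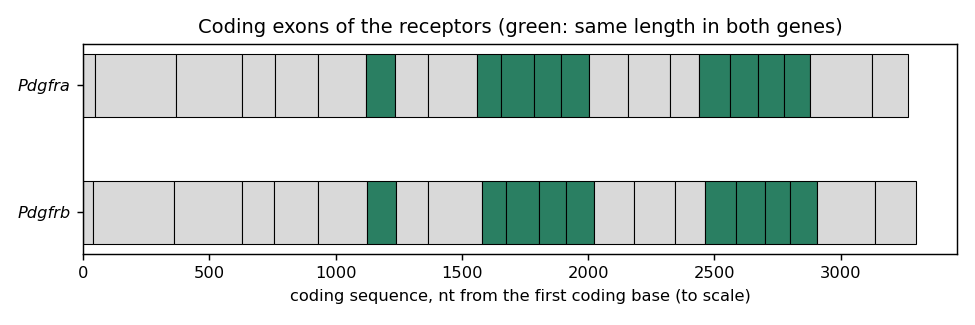
Coding exons of Pdgfra and Pdgfrb drawn to scale along the coding sequence in nt, with exons of the same length at the same place in green. Of 22 coding exons, 9 match in length, in runs from 10 to 13 and from 17 to 20 besides exon 7.

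In order of mean TPM the members ran Pdgfa, Pdgfra, Pdgfrb, Pdgfd, Pdgfb, Pdgfc. Of the 5 neighbouring pairs, 4 had ranges that did not overlap between the libraries, and Pdgfra and Pdgfrb overlapped. The separation of Pdgfb from Pdgfc was narrow, since the ratio was 1.61 in replicate 1 and 1.01 in replicate 2, and with the authors' posterior mean TPM these ranges touched. The step from Pdgfa to Pdgfra was 2.65-fold in the means, and that from Pdgfrb to Pdgfd was 2.04-fold.

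Ligand RNA exceeded receptor RNA per length. The 4 ligands summed to 52.1 and 55.1 TPM in the hearts, and the receptors to 28.7 and 31.1 TPM. The log2 ratio of summed receptors to summed ligands was -0.84 ± 0.03 (SD, n = 2). Within the ligand sum Pdgfd held 12.7% and 14.4%, Pdgfb held 7.10% and 5.85%, and Pdgfc held 4.41% and 5.81%. By single pairs of known partners, Pdgfa was 2.87-fold and 2.46-fold above Pdgfra, whereas Pdgfrb was 4.04-fold and 4.53-fold above Pdgfb. These pairs leave out Pdgfc and Pdgfd. Pdgfd, whose product acts mainly through the beta receptor, was at 6.60 and 7.92 TPM, above Pdgfb. In reads the picture differs, because receptor transcripts are longer, with 2052 mean reads for Pdgfra against 1352 for Pdgfa.

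**Figure D3:**
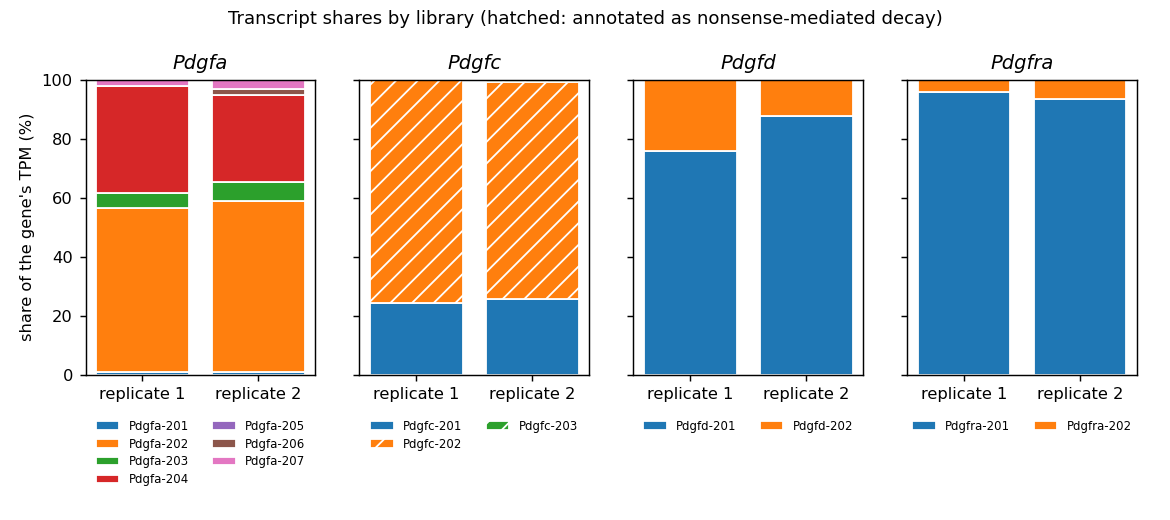
Share of each gene's TPM (percent) by transcript in the 2 libraries, for the 4 members with TPM assigned to more than 1 transcript. Hatching marks a transcript annotated as a target of nonsense-mediated decay. The hatched Pdgfc-202 holds 75.7% and 73.4%, and Pdgfa-201, the long form, is the sliver of about 1% at the base.

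The members were next compared between the hearts, by TMM-scaled counts (a scaling that sets most genes equal between libraries). None of the 6 was 1.5-fold or more apart. In the background, 230 of the 11958 genes that averaged 100 or more reads were, which is 1.92% (1.31% with replicate 2 higher, 0.61% with replicate 1 higher). The background share was 10.3% from 10 reads and 0.652% from 500 reads, and 0.426% at a limit of 2-fold. With 6 genes a count of 0 is near what that share gives and is no result about the members.

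Pdgfc differed most, and was 1.35-fold higher in replicate 2 (95% interval 1.08 to 1.69, exact Clopper-Pearson, for counting error only). A difference of this size or larger, in either direction, was found for 4.37% of the 11958 genes. Pdgfc averaged 167 reads, whereas 8283 of these genes averaged 500 or more. The share among genes of like count was not computed and may be higher. Pdgfd was 1.22-fold higher in replicate 2 (1.06 to 1.41), and Pdgfra was 1.16-fold higher (1.09 to 1.23). For these 3 genes the interval did not include 1. Reads are not independent molecules, so these intervals may be too narrow.

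The other members differed less clearly. Pdgfb was 1.19-fold higher in replicate 1 (0.974 to 1.45), an interval that includes 1. For Pdgfa the log2 difference was -0.01 and for Pdgfrb it was -0.09, with intervals of -0.12 to 0.10 and -0.19 to 0.01. Both intervals include 0. Spike-in scaling moved the median of all tested genes from -0.01 to 0.11, and with it Pdgfa to 0.11 and Pdgfrb to 0.03, so that the change of sign is that of the scale and Pdgfrb lay below the median under both scalings.

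**Figure D4:**
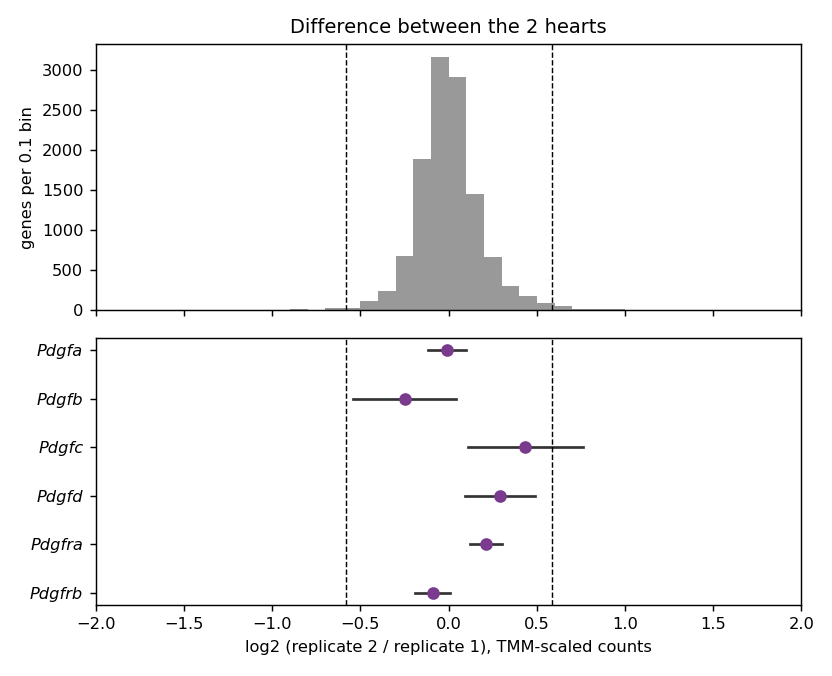
Upper panel, number of genes per 0.1 bin of log2 (replicate 2 over replicate 1) for 11958 genes, with values beyond 2 in the outermost bins. Lower panel, the 6 members with 95% intervals for counting error, all with point values inside the dashed lines at 1.5-fold and with Pdgfc the farthest from 0 at 0.43.

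Markers of the cell types that carry the receptors and ligands were read beside these differences. Of 8 mesenchyme and fibroblast markers, 7 were higher in replicate 2, as was Pdgfra, with a median log2 difference of 0.16 and a summed level of 2575 and 2928 TPM. The epicardial markers had a median of 0.09, with 5 of 7 higher in replicate 2, and Upk3b, at 26.7 and 41.5 TPM, reached the 1.5-fold limit. Of 8 endothelial markers 1 was higher in replicate 2, and the list's median was -0.12, while Pdgfb stood at -0.25. Of 9 smooth muscle and pericyte markers 4 were higher in replicate 2, with a median of -0.10, and the smooth muscle myosin Myh11 was at 0.43 and 1.39 TPM. Each median is set against -0.01 for all tested genes, and each count against tested genes that lay about evenly on both sides of 0. None of the endothelial or mesenchymal markers and 1 of the epicardial and 1 of the mural markers was at least 1.5-fold apart. Among all 11958 tested genes this share was 1.92%. The mural marker, Myh11, rested on 59 and 191 reads. With lists of 7 to 9 genes, such counts are no result about the cell types. Of the other members, Pdgfrb stood at -0.09, while Pdgfc at 0.43 and Pdgfd at 0.29 were set beside no list. Whether the makeup of the hearts plays a part in the differences of the members was not tested.

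Platelets, after which the growth factor is named, come from megakaryocytes, whose markers were present, most of them at a low level. Platelet factor 4 (Pf4) was at 27.9 and 26.4 TPM, above the median of 16.1 TPM of detected protein-coding genes. The integrin gene Itga2b was at 5.36 and 5.26 TPM. Of 5 such markers all were at 1 TPM or more in both libraries. Neural crest and Schwann cell markers were lower, with 2 of 5 at 1 TPM in both and Sox10 at 0.38 and 0.49 TPM.

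Other genes of the pathway and relatives of the members, the VEGF ligands and the other receptors of the class, were nearly all expressed. Of 55 genes in 6 lists with the members left out, 53 reached 1 TPM in both libraries, beside 56.8% of all protein-coding genes. The lists were chosen for known roles and with earlier results of these data known. The count can therefore not be read as enrichment over that share. Of the 51 that averaged 100 or more reads, 1 was 1.5-fold higher in replicate 2 and 0 were higher in replicate 1, beside the 1.31% and 0.61% of all tested genes. The median log2 difference was 0.02.

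Pdgfb and Pdgfa precursors are cut by furin-like proteases, whereas PDGF-C and PDGF-D need removal of the CUB domain outside the cell. Of 7 protease genes 6 reached 1 TPM in both. Furin was at 14.0 and 19.6 TPM, 1.35-fold higher in replicate 2 (1.26 to 1.46). Plat, which encodes tissue plasminogen activator and is known to activate PDGF-C, was the highest of this list at 36.0 and 38.5 TPM. Plau, encoding urokinase, known to activate PDGF-D, was far lower at 1.21 and 1.31 TPM. The matriptase gene St14 fell below 1 TPM in both, at 0.67 and 0.45 TPM. Pcsk5 (8.61 and 9.28 TPM) and Pcsk7 (8.99 and 8.52 TPM) lay between.

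Genes for proteins that bind PDGFs or their receptors were all expressed, 8 of 8. Sparc, a matrix protein known to bind PDGF, was at 1385 and 1404 TPM, far above every ligand. The co-receptor Nrp1 was at 60.9 and 63.3 TPM, the integrin chain Itgav at 52.3 and 58.3 TPM and the matrix proteoglycan Hspg2 at 54.0 and 53.1 TPM. Pdgfrl, which encodes a receptor-like protein without a kinase, was at 12.1 and 14.4 TPM, next to the true receptors in level.

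Behind the receptors, all 22 adaptor and effector genes and all 10 negative regulators reached 1 TPM in both libraries. The adaptor Crk (68.7 and 66.8 TPM), the Ras regulator Rasa1 (46.8 and 51.1 TPM), the adaptor Grb2 (48.0 and 44.5 TPM) and Nck1 (43.2 and 47.3 TPM) led, all above either receptor. The kinase gene Src, at 3.25 and 5.23 TPM, was higher in replicate 2 by 0.59 on the log2 scale (1.28- to 1.77-fold) and was the only tested gene of the 6 lists past 1.5-fold. Of the inhibitors, Spry2 (49.2 and 51.7 TPM) and the phosphatases Ptpn2 (34.3 and 33.7 TPM) and Ptpn1 (29.6 and 30.5 TPM) were highest, followed by the ubiquitin ligase Cbl (10.4 and 9.13 TPM).

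The PDGF genes were also set beside their closest relatives. VEGF ligands belong to the same cystine-knot family, and their highest member stood well above the highest PDGF ligand. Vegfb was at 110 and 119 TPM and Vegfc at 17.3 and 18.5 TPM, below Pdgfa. Pgf (6.67 and 7.60 TPM) and Vegfa (6.56 and 6.34 TPM) lay near Pdgfd, and Vegfd (3.23 and 3.51 TPM) near Pdgfb. Among the receptors of the same class, Csf1r, the macrophage receptor, was at 15.0 and 11.6 TPM and overlapped both PDGF receptors, Kit was lower at 8.85 and 8.56 TPM, and Flt3 was at 0.07 and 0.03 TPM from 5 and 2 reads.

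**Figure D5:**
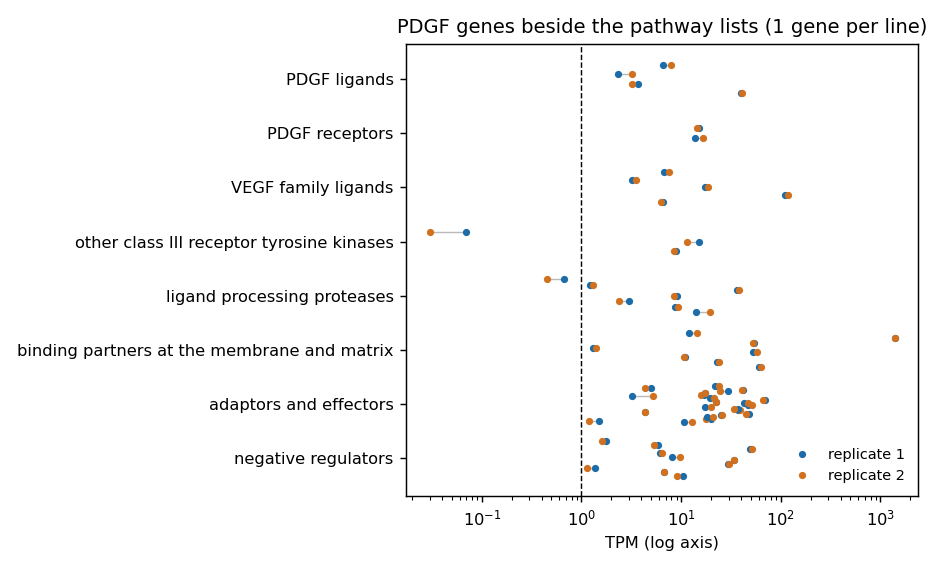
TPM (log axis) of each gene in the 2 libraries for the PDGF members and the 6 lists of pathway genes and relatives. A grey line joins the values of a gene, and a dashed line marks 1 TPM. Flt3 and St14 are the genes below 1 TPM, and Sparc stands highest.

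For each member the nearest genes in level were found among the 61 genes of these lists, as the distance of log2 TPM over the 2 libraries. The receptors were close to each other, with a distance of 0.22. For Pdgfrb only Fyn was closer (0.21), and Pdgfra had no closer gene, with Furin next (0.25). Pdgfd was nearest to Pgf (0.06), Pdgfa to Stat3 and Shc1 (0.10 each), and Pdgfb and Pdgfc to Vegfd (0.23 and 0.51). With 2 libraries such a distance mostly reflects the level.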

How the data were processed

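Each library had a gene and a transcript table on mm10 with GENCODE M4, per the deposited README files. No aligner, counter or strand setting could be stated (not given in the sources used here). The column names are those of RSEM. The expected counts are the authors' estimated reads, not scaled by depth. The TPM and FPKM were scaled by the authors. The tables also hold the authors' posterior SD, TPM intervals and percent of a gene's TPM per transcript, as deposited.

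Symbols, positions and transcript types came from GENCODE M21 (same assembly), with a symbol for 42462 of 43346 gene rows. Expected counts were rounded for TMM scaling with edgeR 4.0.16 in R 4.3.3. Fold changes used a prior count of 0.5, a floor of 100 reads on average and a limit of 1.5-fold. The fold calculation was tested on simulated data. Transcript shares are percentages of TPM. Sequences came from GENCODE M21 transcripts and RefSeq (GRCm38.p6).

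At this depth 1 read on an effective length of 1 kb equals 0.0478 and 0.0475 TPM. The members and lists were chosen with earlier results of these data known. The rule for names took, per list, the 4 highest genes, genes that averaged 50 or more reads and lay 1.5-fold or more apart, and genes below 1 TPM in both libraries, besides the 2 nearest genes per member and transcripts with a share of at least 10%. Other genes and transcripts named were chosen after their values were seen. Alternatives covered units, scalings, minimum counts, the fold limit and leaving out each library.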

Additional observations from a re-analysis of the deposited data

How the results depend on the processing

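The order of the members was the same under every unit tried and changed only without replicate 2, where Pdgfrb came before Pdgfra. With both libraries the number of separate neighbours was 3 with posterior mean TPM and 4 with the other units. A single library has no range, so leaving one out says nothing about separation. The summed level of the members, 83.5 TPM, was 60.9 as FPKM, 102 TPM when rescaled without haemoglobin, mitochondrial and spike-in rows, and 55.1 as depth-scaled reads per kb of the longest transcript. With either library left out it was 80.8 to 86.2 TPM. The log2 ratio of summed receptors to summed ligands, -0.84, was -0.89 with posterior mean TPM and -0.56 per longest transcript. Per longest transcript the log2 ratio of Pdgfa to Pdgfra fell from 1.41 to 1.08, and that of Pdgfa to Pdgfb from 3.54 to 3.23. That of Pdgfra to Pdgfrb ranged from -0.12 to 0.18 when a library was left out. No member was 1.5-fold apart under any of the scalings or estimates tried. The 1 gene of the 6 lists past 1.5-fold became 2 from an average of 10 reads, where St14 joined, and 0 from 500 reads or with a limit of 2-fold. The share of Pdgfa-202, 56.6%, was 69.0% by estimated counts and 53.7% by posterior mean TPM. That of Pdgfc-202, 74.5%, was 70.1% and 71.3%, and that of Pdgfra-201, 94.7%, was 92.2% by posterior mean TPM. Apart from the construction of each setting, the cause was not tested. No paired analysis was possible because there is a single group. Depth limits Pdgfb and Pdgfc most, which had 139 to 218 reads per library and the widest counting intervals of the members.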

Other observations

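Counting only transcripts annotated as protein coding in GENCODE M21 lowered Pdgfc and hardly touched the other members. Pdgfc then stood at 0.56 TPM in replicate 1 and 0.82 TPM in replicate 2, or 1.13% and 1.62% of the ligand sum. Pdgfa stood at 38.6 TPM in both libraries, Pdgfb at 3.70 and 3.22 TPM and Pdgfd at 6.60 and 7.91 TPM. On this scale Pdgfb was separate from Pdgfc in both hearts.

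The later annotation adds 7 Pdgfra transcripts, 3 Pdgfb transcripts and 1 Pdgfd transcript that were not analysed here. Among them are Pdgfra-205 and Pdgfra-208, each with 790 codons against the 1089 of the full receptor.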
